A study of Mus musculus with 8 samples.

Results

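The mitosis and cytokinesis genes described here are 56 genes whose products drive cells into mitosis, build the spindle, attach and separate the chromosomes and divide the cell. They were chosen by name, as the rows of the count table with one of 56 gene symbols, out of 31815 genes in the table. Each symbol matched exactly 1 row, and all 56 genes passed the filter on low counts that left 13329 genes for testing. Mean levels ran from 29.5 CPM (counts scaled to 1000000 per library) for Cdc25c to 842 for Top2a.

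The libraries came from naive CD8 T cells of the spleens of OT-I mice (C57BL/6-Tg(TcraTcrb)1100Mjb/J), which have a T cell receptor transgene specific for a peptide of ovalbumin. Every culture had the peptide for 3 days, was given a retroviral vector at 24 h after the start, and was sorted on day 5. One vector encoded TOXFL, the full-length TOX protein, and the other encoded TOXdeltaN, which the sample codes call Short. TOX binds DNA in the nucleus through an HMG box, and both proteins are products of the Tox gene. Both vectors carried GFP after an internal ribosome entry site, and GFP is therefore the mark of a cell with the vector. The 4 groups, with 2 libraries each, are GFP-negative cells of TOXFL cultures (TOXFL-negative), the brightest 20% of GFP-positive cells of TOXFL cultures (TOXFL-positive), and the same populations of TOXdeltaN cultures (TOXdeltaN-negative and TOXdeltaN-positive). All 4 groups thus share the receptor transgene, the peptide stimulation and exposure to a vector, and the GFP-negative cells keep their own Tox gene. GFP-positive cells differ from GFP-negative cells at least by the vector, by GFP, by the added TOX protein and by the sort gate. They may also differ in division at the time the vector was given, which was not measured. These differences cannot be told apart here, because cells with a GFP-only vector were not analysed here. Nothing in the labels says that the replicates of a group are separate animals or cultures. The p-values therefore reflect the spread of these libraries alone, and that spread may be technical.

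As background, CDK1 bound to cyclin B starts mitosis, and Polo-like and Aurora kinases act with it on centrosomes, spindle and kinetochores. Spindle microtubules attach to kinetochores, the protein plates built on centromeres, and the spindle checkpoint holds back the anaphase-promoting complex (APC/C) until every kinetochore is attached. The APC/C then marks securin and cyclin B for destruction, separase cuts cohesin between sister chromatids, and the central spindle and contractile ring divide the cell. The mRNAs of these genes are made mainly in late S phase, G2 and mitosis. In activated CD8 T cells, which divide many times in the days after antigen, they are used as measures of proliferation. In bulk libraries such as these, more cells in G2 and mitosis and more RNA per such cell cannot be told apart.

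Many promoters of this kind share short sequences, so the RefSeq promoters of the genes (GRCm38.p6) are shown before the values. The cell cycle genes homology region (CHR), TTTGAA, is bound by the MuvB core that the DREAM repressor and the B-MYB activator share, and CCAAT boxes are bound by NF-Y. The stretches run from 150 bases before to 30 bases after the annotated start, read along the gene's own strand. They belong to the most abundant gene of each role that the promoter table held. Capitals mark matches to TTTGAA (or TTCAAA on the opposite strand), to the variant TTCGAA and to CCAAT (or ATTGG).
Top2a (chr11:99024160-99024339, minus strand): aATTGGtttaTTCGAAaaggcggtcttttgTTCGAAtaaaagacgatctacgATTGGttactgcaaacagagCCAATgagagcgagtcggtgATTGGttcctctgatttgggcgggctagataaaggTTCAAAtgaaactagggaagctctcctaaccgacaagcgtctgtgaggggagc
Racgap1 (chr15:99651627-99651806, minus strand): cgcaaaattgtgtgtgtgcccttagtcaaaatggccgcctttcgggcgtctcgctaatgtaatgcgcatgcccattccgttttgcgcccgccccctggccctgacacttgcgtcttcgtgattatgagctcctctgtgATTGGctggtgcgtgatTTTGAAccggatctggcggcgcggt
Ccnb2 (chr9:70421525-70421704, minus strand): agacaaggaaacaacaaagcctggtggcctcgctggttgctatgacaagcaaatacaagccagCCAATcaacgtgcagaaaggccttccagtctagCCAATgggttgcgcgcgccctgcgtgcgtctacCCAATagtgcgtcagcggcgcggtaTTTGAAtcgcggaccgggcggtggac
Kif11 (chr19:37376232-37376411, plus strand): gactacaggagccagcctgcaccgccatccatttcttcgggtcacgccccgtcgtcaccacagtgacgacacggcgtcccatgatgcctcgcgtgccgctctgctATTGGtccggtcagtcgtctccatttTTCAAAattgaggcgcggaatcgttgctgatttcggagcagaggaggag
Cdc20 (chr4:118437314-118437493, minus strand): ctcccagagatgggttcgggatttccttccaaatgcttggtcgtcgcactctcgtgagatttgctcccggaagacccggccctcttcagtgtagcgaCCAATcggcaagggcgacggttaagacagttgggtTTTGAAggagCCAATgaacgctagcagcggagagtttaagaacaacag
Cenpa (chr5:30666736-30666915, plus strand): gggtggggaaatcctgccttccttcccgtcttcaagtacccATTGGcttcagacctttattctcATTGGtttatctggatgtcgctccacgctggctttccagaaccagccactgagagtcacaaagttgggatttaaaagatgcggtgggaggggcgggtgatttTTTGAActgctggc
Birc5 (chr11:117849087-117849266, plus strand): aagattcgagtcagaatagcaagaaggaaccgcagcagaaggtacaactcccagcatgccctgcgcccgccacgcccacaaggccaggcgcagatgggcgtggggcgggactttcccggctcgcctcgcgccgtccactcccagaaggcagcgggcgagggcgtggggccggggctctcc
Bub1b (chr2:118598061-118598240, plus strand): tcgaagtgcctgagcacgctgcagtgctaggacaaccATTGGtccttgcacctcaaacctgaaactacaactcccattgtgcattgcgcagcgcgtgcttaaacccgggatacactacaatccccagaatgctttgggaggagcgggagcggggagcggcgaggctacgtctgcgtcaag

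The stretch of Ccnb2 holds 3 CCAAT boxes and then a CHR element just after the start, and that of Top2a holds CCAAT boxes together with both forms of the CHR element. The Birc5 stretch holds no match to any motif, and the Bub1b stretch holds a CCAAT box alone. Promoters were found for 45 of the 56 genes, 47 promoters in all. No promoter was matched for Aurkb, Ccna2, Cdc25c, Dlgap5, Foxm1, Incenp, Kif20a, Pbk, Smc4, Spc24 and Tpx2. Over the full window of 250 bases before to 50 bases after the start, and on either strand, TTTGAA was present in 33 of 45 genes (73.3%), against 17.89% of all 32851 promoters in the table and 12.42% of the 12948 promoters of tested genes. CCAAT was present in 33 of 45 (73.3%), against 37.41% of all promoters. A CHR element or its variant together with a CCAAT box was present in 30 of 45 (66.7%), against 7.52% of all promoters. At least 2 CCAAT boxes were present in 21 genes (46.7%), against 11.7% of all promoters. E2F sites, searched as TTTCCCGC, TTTGGCGC, TTTCGCGC and TTTGCCGC, were present in 3 genes, Cdk1, Kif15 and Ncapg (6.7%, against 2.26%). The variant TTCGAA was present in 4 genes (8.9%, against 1.56%), namely Bub1, Bub1b, Sgo1 and Top2a. Among promoters of tested genes the shares were 38.01% for CCAAT and 6.0% for a CHR element or variant with a CCAAT box. They were 14.5% for at least 2 CCAAT boxes, 3.99% for E2F sites and 2.08% for the variant.

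In 29 genes a CHR element was centred within 40 bases of the start. A CHR element and a CCAAT box overlapped by a base in Cdca8, and 2 CCAAT boxes overlapped in Ube2c. No CHR element or variant was in the windows of Birc5, Ccnb1, Cenpe, Mad2l1, Melk, Ncaph, Nek2, Nuf2, Nusap1 and Pttg1. A match describes letters in the window and not a bound site. The 35 genes with a CHR element or variant had a median average log2 difference between GFP-positive and GFP-negative cells of 0.37, and the 10 without had 0.41.

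**Figure D1:**
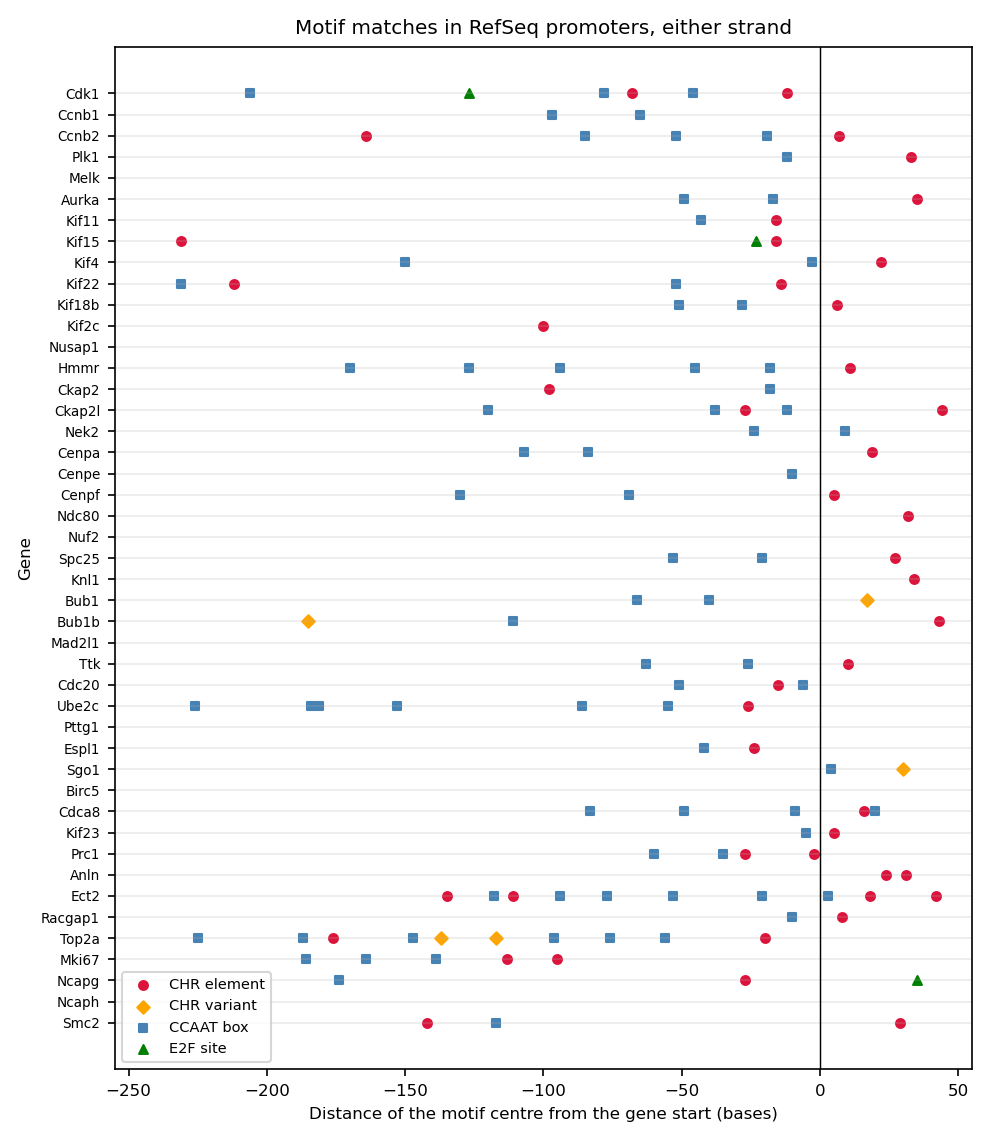
Motif matches on either strand in the RefSeq promoters of 45 mitosis and cytokinesis genes. The x axis is the distance of the motif centre from the annotated gene start in bases, each row is a gene, circles are CHR elements, diamonds the CHR variant, squares CCAAT boxes and triangles E2F sites. CHR elements sit around the start, within 40 bases of it in 29 genes, and CCAAT boxes mostly lie before them.

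Total counts were between 25059112 and 31240067 per library. Tox, which checks the GFP labels, measured 21.8 to 34.4 CPM in the 4 GFP-negative and 82.9 to 126 CPM in the 4 GFP-positive libraries. These values come from the vector and the cell's own gene together. They do not check the construct labels, at 105 and 126 CPM in TOXFL-positive and 107 and 82.9 CPM in TOXdeltaN-positive libraries. The CD8 T cell markers (Cd3d, Cd3e, Cd3g, Cd8a, Cd8b1, Cd2 and Lck) summed to 4401 to 4907 CPM in every library. The 6 B cell markers summed to 16.4 to 17.5 CPM in GFP-negative and 13.99 to 16.4 CPM in GFP-positive libraries, most of it Cd79b (13.1 to 16.8 CPM), and each other marker list summed to 8.5 CPM or less. Pax5 and Adgre1 were at 0 everywhere. Only 20 of the 33 marker genes passed the filter on low counts and could be tested, and 0 of these were called in any comparison. Replicates differed beyond counting error: the chi-square over its degrees of freedom was 11.2 for both GFP-negative groups, 18.9 for TOXFL-positive and 38.7 for TOXdeltaN-positive libraries.

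The mitosis and cytokinesis genes as a group took a larger share of the counts in GFP-positive than in GFP-negative cells, and their median log2 difference was above 0 in every role. Of all counts they took 0.865% and 0.987% in TOXFL-negative libraries and 0.926% and 0.974% in TOXdeltaN-negative libraries. Their share was 1.204% and 1.25% in TOXFL-positive libraries and 1.23% and 1.11% in TOXdeltaN-positive libraries. Each GFP-positive library was thus above each GFP-negative library. Summed by role, this held for 6 of the 8 roles, and in cytokinesis (1098.5 against 1107.7 CPM) and chromosome structure (2355.6 against 2356.2 CPM) TOXdeltaN-positive replicate 2 was below TOXFL-negative replicate 2. The share of counts from mitochondrially encoded genes separated the same libraries in the other direction, at 0.83% to 0.91% in the 4 GFP-negative and 0.45% to 0.80% in the 4 GFP-positive libraries, lowest in TOXFL-positive replicate 2. Its part in the differences was not tested. The first test was of the average of the TOXFL and TOXdeltaN effects (GFP-positive minus GFP-negative log2 difference), by edgeR's quasi-likelihood test with Benjamini-Hochberg adjustment over the 13329 genes. A gene is called when its adjusted p was under 0.05. By this test 29 of 56 genes were called higher and 0 lower, against 1.34% of all tested genes called higher and 1.08% called lower. The 56 genes had a median log2 difference of 0.38, or 29.9% higher, while the median of all tested genes was -0.00052, and all 56 estimates were above 0. The 29 called genes rose by log2 differences of 0.36 to 0.60, with adjusted p from 0.0127 to 0.0425. In 40 of the 56 genes all 4 GFP-positive libraries were above all 4 GFP-negative libraries, which held for 8.22% of all tested genes, and the reverse held for 0 of 56 (8.08% of all tested genes). Of the 16 genes that overlapped, 14 had their lowest GFP-positive value in TOXdeltaN-positive replicate 2.

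**Figure D2:**
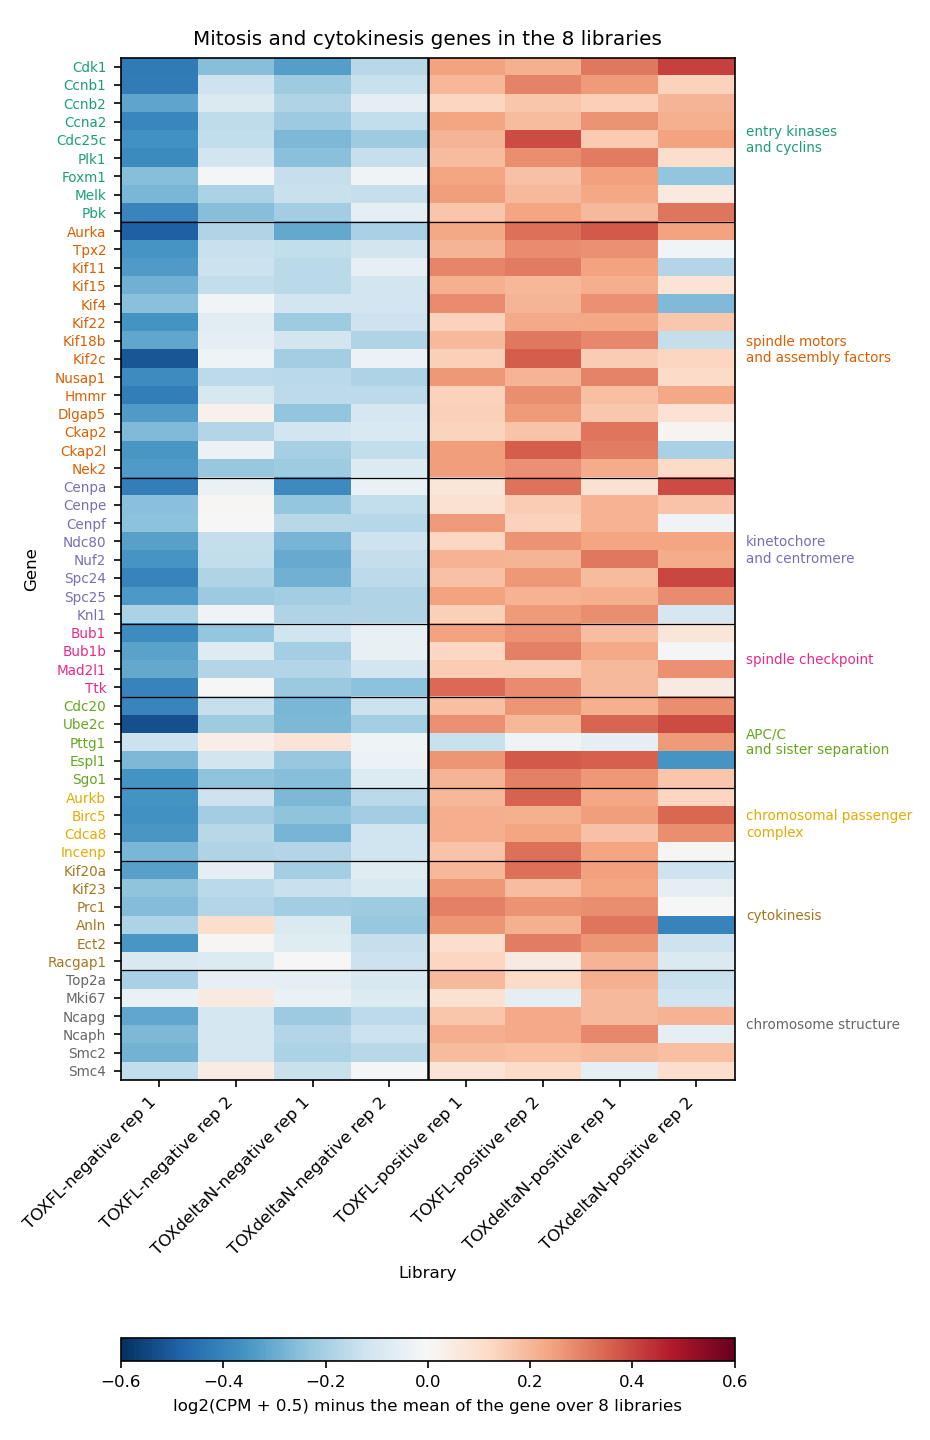
Level of each of the 56 genes in each of the 8 libraries, as log2(CPM + 0.5) minus the gene's mean over the libraries, with red above and blue below that mean. Columns are libraries, with the 4 GFP-negative libraries left of the black line, and rows are genes grouped by role. The GFP-negative columns are blue for nearly all genes, palest for Mki67, Smc4, Racgap1 and Pttg1, and TOXdeltaN-positive replicate 2 is the only GFP-positive column with many blue cells.

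The number called depended on single libraries. Without TOXFL-negative replicate 1, TOXFL-positive replicate 2, TOXdeltaN-negative replicate 1 or TOXdeltaN-negative replicate 2 the average effect gave 0 called genes. It gave 14 without TOXFL-negative replicate 2 (0.317% of all tested genes called higher), 16 without TOXFL-positive replicate 1 (0.562%), 38 without TOXdeltaN-positive replicate 1 (7.68%) and 41 without TOXdeltaN-positive replicate 2 (1.38%). All 29 genes kept estimates above 0 in each of these fits, which share most of their libraries with the fit that picked them. In the blocked fit, which adds replicate number to the model, 43 of 56 genes were called higher and 0 lower, against 6.04% of all tested genes called higher. The number called moved with the library left out in this fit too, at median log2 differences of 0.32 to 0.46. TOXFL-negative replicate 1 was the lowest GFP-negative library for 53 of the 56 genes.

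Of the 9 entry kinases and cyclins, 7 were called higher on average (8 in the blocked fit), with a median log2 difference of 0.44. All CPM values below are given as replicate 1 and replicate 2 of a group. Values with or without a construct are those of GFP-positive or GFP-negative libraries of its cultures. The wording does not assign a difference to the TOX protein. Cdk1 (ENSMUSG00000019942.13, GRCm38 chromosome 10, 69335146 to 69352938, minus strand), the kinase that starts mitosis, was at 115 and 129.6 CPM in TOXFL-negative and 123 and 138 CPM in TOXdeltaN-negative libraries, against 184 and 179.7 CPM in TOXFL-positive and 193 and 206 CPM in TOXdeltaN-positive libraries. It rose on average by a log2 of 0.59 (SE 0.0709, adjusted p = 0.0127), the lowest adjusted p of the 56 genes. Its lowest GFP-positive library stood at 179.7 CPM and its highest GFP-negative library at 138 CPM. The B cyclins bind CDK1. Ccnb1 measured 177 and 217 CPM without and 271 and 290.3 CPM with TOXFL, and 204 and 215 CPM without and 282 and 260.2 CPM with TOXdeltaN, and was called on average (log2 0.44, adjusted p = 0.0269). Ccnb2 measured 199 and 233 CPM without and 271 and 278 CPM with TOXFL, and 219 and 238 CPM without and 274 and 286 CPM with TOXdeltaN. Its GFP-positive and GFP-negative libraries did not overlap, but it missed the threshold (log2 0.32, adjusted p = 0.0528, and 0.00723 in the blocked fit). After a correction for gene length its average log2 difference was 0.21 (adjusted p = 0.123). Ccna2, cyclin A2, which acts in S phase and G2, had 284 and 336 CPM in TOXFL-negative against 439 and 426 CPM in TOXFL-positive cells, and 321 and 336 against 449.7 and 432 CPM in the TOXdeltaN groups, and rose on average by a log2 of 0.45. Its span overlaps that of Exosc9 on the other strand (62.4 CPM), and this library chemistry does not mark strand.

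Cdc25c, the phosphatase that removes inhibitory phosphates from CDK1, was the least abundant of the 56 genes and measured 22.5 and 26.2 CPM without and 33.5 and 38.2 CPM with TOXFL, and 23.99 and 24.98 CPM without and 32.4 and 34.4 CPM with TOXdeltaN. It was higher in every GFP-positive library and rose on average by a log2 of 0.50 (SE 0.0844). Plk1, Polo-like kinase 1, had 162 and 195 CPM in TOXFL-negative against 241 and 257 CPM in TOXFL-positive cells, and 178 and 192 against 263 and 228 CPM in the TOXdeltaN groups, a log2 of 0.44 (adjusted p = 0.032) that missed the threshold after a correction for gene length (adjusted p = 0.0597). The kinase genes Melk and Pbk were also called on average. Melk measured 49.4 and 52.4 CPM without and 71.4 and 68.5 CPM with TOXFL, and 54.5 and 54.4 CPM without and 70.3 and 62.4 CPM with TOXdeltaN, and Pbk measured 49.02 and 54.1 CPM without and 72.6 and 76.2 CPM with TOXFL, and 55.7 and 62.04 CPM without and 73.9 and 80.7 CPM with TOXdeltaN. Their average log2 differences were 0.37 and 0.46, with no GFP-positive library at or below a GFP-negative one. The member of this role not called in either fit was Foxm1, a forkhead transcription factor of G2 and mitosis genes (log2 0.22, adjusted p = 0.273). It is named after its values were seen, and it stood at 98.7 CPM in TOXdeltaN-positive replicate 2 against 132 to 138 CPM in the other GFP-positive libraries.

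Of the 14 spindle motors and assembly factors, 6 were called higher on average (11 in the blocked fit), with a median log2 difference of 0.37. Aurka (ENSMUSG00000027496.15, GRCm38 chromosome 2, 172356190 to 172370535, minus strand), the Aurora kinase of centrosomes and spindle poles, was at 72.9 and 90.7 CPM in TOXFL-negative and 82.95 and 89.7 CPM in TOXdeltaN-negative libraries, against 121 and 129 CPM in TOXFL-positive and 133 and 121 CPM in TOXdeltaN-positive libraries. Its lowest GFP-positive value was 121 CPM and its highest GFP-negative value 90.7 CPM, and its average log2 difference of 0.58 (SE 0.0845, adjusted p = 0.0206) was the largest of this role. Kif11, the kinesin that slides antiparallel microtubules to separate the spindle poles, measured 265 and 307 CPM without and 412 and 417 CPM with TOXFL, and 299.8 and 325 CPM without and 397 and 297 CPM with TOXdeltaN. Its TOXdeltaN-positive replicate 2 was below TOXdeltaN-negative replicate 1, and it was not called on average (log2 0.34, adjusted p = 0.0888, and 0.038 in the blocked fit). Kif15, a kinesin that can stand in for KIF11, had 81.1 and 89.2 CPM in TOXFL-negative against 115 and 114 CPM in TOXFL-positive cells, and 88.5 and 91.5 against 115 and 105 CPM in the TOXdeltaN groups, and rose on average by a log2 of 0.36.

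Kif22, a chromokinesin that pushes chromosome arms towards the metaphase plate, measured 183 and 225 CPM without and 258 and 275 CPM with TOXFL, and 202 and 215 CPM without and 276 and 263 CPM with TOXdeltaN (average log2 0.38, adjusted p = 0.0425). Nusap1, a microtubule-binding protein near chromatin, measured 218 and 255 CPM without and 340.5 and 328 CPM with TOXFL, and 254 and 249.7 CPM without and 349 and 308 CPM with TOXdeltaN, and rose on average by a log2 of 0.44. It overlaps Oip5 on the other strand. Hmmr, which binds microtubules at the spindle poles, had 95.03 and 119 CPM in TOXFL-negative against 139.5 and 154 CPM in TOXFL-positive cells, and 113 and 113 against 144 and 149 CPM in the TOXdeltaN groups, and Nek2, a centrosome kinase, had 103 and 112 CPM in TOXFL-negative against 155 and 158 CPM in TOXFL-positive cells, and 113 and 124 against 153 and 142 CPM in the TOXdeltaN groups. Their average log2 differences were 0.41 (adjusted p = 0.038) and 0.43 (adjusted p = 0.0222), and neither had overlapping GFP-positive and GFP-negative libraries. The other 7 genes of this role were not called in the fit without the block, at average log2 differences of 0.26 to 0.38. Among them, named after their values were seen, the motors Kif4 and Kif18b and the spindle protein Ckap2l were not called in the blocked fit either (adjusted p = 0.14, 0.0531 and 0.0536).

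Of the 8 kinetochore and centromere genes, 4 were called higher on average (7 in the blocked fit), with a median log2 difference of 0.44. These 4 were Ndc80, Nuf2, Spc24 and Spc25, the subunits of the NDC80 complex that binds spindle microtubules at the kinetochore. Ndc80 measured 79.7 and 90.3 CPM without and 109 and 121 CPM with TOXFL, and 82.2 and 91.6 CPM without and 118 and 118 CPM with TOXdeltaN. Nuf2 measured 82.8 and 95.8 CPM without and 123 and 122 CPM with TOXFL, and 85.96 and 96.1 CPM without and 132 and 124 CPM with TOXdeltaN, and Spc24 measured 62.6 and 72.97 CPM without and 93.6 and 99.3 CPM with TOXFL, and 67.8 and 74.3 CPM without and 94.5 and 109.6 CPM with TOXdeltaN. Spc25 (ENSMUSG00000005233.16, GRCm38 chromosome 2, 69193895 to 69206194, minus strand) was at 63.4 and 69.4 CPM in TOXFL-negative and 69.9 and 71.1 CPM in TOXdeltaN-negative libraries, against 95.6 and 93.3 CPM in TOXFL-positive and 93.9 and 98.5 CPM in TOXdeltaN-positive libraries. The average log2 differences of the 4 subunits lay between 0.44 and 0.51, with adjusted p from 0.0168 to 0.0257. In none of them did a GFP-positive library fall to the level of a GFP-negative one.

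Cenpa, the histone H3 variant that marks centromeres, was at 214 and 278 CPM in TOXFL-negative and 219 and 278 CPM in TOXdeltaN-negative libraries, against 300.2 and 358 CPM in TOXFL-positive and 304 and 375 CPM in TOXdeltaN-positive libraries. Replicate 2 was above replicate 1 in all 4 groups, and the gene was called in the blocked fit alone (average log2 0.44, adjusted p = 0.0842 without and 0.00154 with the block). Cenpe, the kinetochore kinesin, measured 109 and 130.2 CPM without and 138 and 144 CPM with TOXFL, and 110.3 and 117 CPM without and 149.6 and 146 CPM with TOXdeltaN (average log2 0.31, adjusted p = 0.0649, and 0.0136 in the blocked fit). Cenpf, a large outer kinetochore protein, had 126 and 150.1 CPM in TOXFL-negative against 178 and 165 CPM in TOXFL-positive cells, and 133 and 133 against 173 and 148 CPM in the TOXdeltaN groups. Its TOXdeltaN-positive replicate 2 lay below TOXFL-negative replicate 2, and its adjusted p was 0.0891 without and 0.0381 with the block. The remaining gene of this role had an average log2 difference of 0.29 and was not called in either fit.

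Of the 4 spindle checkpoint genes, 2 were called higher on average (4 in the blocked fit), with a median log2 difference of 0.39. Bub1 (ENSMUSG00000027379.13, GRCm38 chromosome 2, 127801122 to 127831865, minus strand), the kinase that recruits checkpoint proteins to kinetochores, was at 90.96 and 101 CPM in TOXFL-negative and 109 and 115 CPM in TOXdeltaN-negative libraries, against 140.0 and 143 CPM in TOXFL-positive and 135 and 124 CPM in TOXdeltaN-positive libraries, an average log2 difference of 0.39 (SE 0.0672, adjusted p = 0.0257). Its TOXFL-positive libraries were its highest and its TOXFL-negative libraries its lowest. Mad2l1, the checkpoint protein that holds CDC20, measured 102 and 112 CPM without and 139.9 and 140.1 CPM with TOXFL, and 111 and 116 CPM without and 144 and 153 CPM with TOXdeltaN, and rose on average by a log2 of 0.39 (adjusted p = 0.0234). Bub1b, which encodes the BUBR1 subunit of the mitotic checkpoint complex, measured 223 and 263 CPM without and 303 and 343 CPM with TOXFL, and 241 and 269 CPM without and 326 and 276 CPM with TOXdeltaN. All its GFP-positive values were above its GFP-negative values, but it was called in the blocked fit alone (log2 0.33, adjusted p = 0.0821 without and 0.026 with the block). The fourth gene of this role had an average log2 difference of 0.43 (adjusted p = 0.0503 without and 0.0145 with the block).

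Of the 5 genes of the APC/C and of sister separation, 3 were called higher on average, in both fits, and the median log2 difference was 0.47. Ube2c (ENSMUSG00000001403.13, GRCm38 chromosome 2, 164769898 to 164778822, plus strand), the ubiquitin-conjugating enzyme that works with the APC/C, was at 149.7 and 186 CPM in TOXFL-negative and 179 and 187 CPM in TOXdeltaN-negative libraries, against 262 and 248 CPM in TOXFL-positive and 275 and 284 CPM in TOXdeltaN-positive libraries. Its average log2 difference of 0.60 (SE 0.0788, adjusted p = 0.0158) was the largest of all 56 genes, 52.0% higher. Cdc20, the activator that brings substrates to the APC/C, measured 232 and 277 CPM without and 346 and 367 CPM with TOXFL, and 252 and 278 CPM without and 354 and 370.2 CPM with TOXdeltaN, and rose on average by a log2 of 0.47. It overlaps Elovl1 on the other strand (102 CPM). Sgo1, shugoshin, which shields centromeric cohesin, had 49.02 and 53.2 CPM in TOXFL-negative against 72.5 and 77.9 CPM in TOXFL-positive cells, and 52.7 and 59.5 against 75.5 and 70.7 CPM in the TOXdeltaN groups, and rose on average by a log2 of 0.47. For these 3 genes the GFP-positive and GFP-negative libraries did not overlap.

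Separase and securin did not pass. Espl1, separase, which cuts cohesin, measured 136 and 152 CPM without and 197 and 211 CPM with TOXFL, and 139.8 and 159.9 CPM without and 209.8 and 128 CPM with TOXdeltaN, so that TOXdeltaN-positive replicate 2 was its lowest library and the other 3 GFP-positive libraries were its highest. Its average log2 difference was 0.34 (SE 0.136, adjusted p = 0.188). With TOXdeltaN its log2 difference was 0.17. Over the alternative fits it ran from -0.30, in the blocked fit without TOXdeltaN-positive replicate 1, to 0.56. Pttg1, securin, which holds separase inactive, is named after its values were seen. It had 32.2 and 36.2 CPM in TOXFL-negative against 32.1 and 34.6 CPM in TOXFL-positive cells, and 37.2 and 34.7 against 33.8 and 42.1 CPM in the TOXdeltaN groups, with an average log2 difference of 0.02, and its GFP-positive and GFP-negative libraries were interleaved.

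All 4 genes of the chromosomal passenger complex, which corrects wrong attachments at centromeres and later acts at the central spindle, were called higher on average in both fits, with a median log2 difference of 0.45. Birc5 (ENSMUSG00000017716.15, GRCm38 chromosome 11, 117849251 to 117855743, plus strand), survivin, was at 201 and 224 CPM in TOXFL-negative and 219 and 224 CPM in TOXdeltaN-negative libraries, against 301 and 300.2 CPM in TOXFL-positive and 308 and 328 CPM in TOXdeltaN-positive libraries, an average log2 difference of 0.51 (SE 0.0637, adjusted p = 0.0155). Aurkb, the kinase of the complex, measured 165 and 195 CPM without and 244 and 272 CPM with TOXFL, and 176 and 190.0 CPM without and 249 and 233 CPM with TOXdeltaN, and rose on average by a log2 of 0.46. Cdca8, borealin, measured 150.4 and 171 CPM without and 222 and 226 CPM with TOXFL, and 158 and 176 CPM without and 216 and 232 CPM with TOXdeltaN, and Incenp, the scaffold, measured 232 and 248 CPM without and 317 and 354 CPM with TOXFL, and 249 and 259 CPM without and 332 and 283 CPM with TOXdeltaN. Their average log2 differences were 0.45 and 0.38. In the complex as a whole every GFP-positive library was above every GFP-negative library, with summed levels of 749 to 849 CPM in GFP-negative and 1077 to 1152 CPM in GFP-positive libraries.

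Of the 6 cytokinesis genes, 1 was called higher on average (3 in the blocked fit), with a median log2 difference of 0.30. It was Prc1 (ENSMUSG00000038943.16, GRCm38 chromosome 7, 80294450 to 80316259, plus strand), which bundles antiparallel microtubules of the central spindle. Prc1 was at 152 and 162 CPM in TOXFL-negative and 158 and 158 CPM in TOXdeltaN-negative libraries, against 225 and 220.5 CPM in TOXFL-positive and 221 and 183 CPM in TOXdeltaN-positive libraries, an average log2 difference of 0.43 (SE 0.074, adjusted p = 0.0257). Kif20a, a kinesin that carries the passenger complex to the central spindle, measured 183 and 221 CPM without and 264 and 289 CPM with TOXFL, and 199 and 218 CPM without and 272 and 211 CPM with TOXdeltaN (average log2 0.33, adjusted p = 0.1 without and 0.0434 with the block). Its TOXdeltaN-positive replicate 2 was within the GFP-negative range, and it overlaps Cdc23 on the other strand (122 CPM). Racgap1, the RhoA-pathway GTPase activator of centralspindlin and the most abundant gene of this role, measured 463 and 465 CPM without and 538 and 512 CPM with TOXFL, and 491 and 451 CPM without and 568 and 464 CPM with TOXdeltaN. Its average log2 difference of 0.15 (adjusted p = 0.265) was not called in either fit. The other 3 genes had average log2 differences of 0.22 to 0.32 and were not called without the block.

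Of the 6 chromosome structure genes, 2 were called higher on average (3 in the blocked fit), with a median log2 difference of 0.27, the smallest median of the 8 roles. The called genes belong to condensin, the ring complex that compacts mitotic chromosomes. Ncapg measured 129 and 149 CPM without and 180.3 and 188 CPM with TOXFL, and 138 and 144 CPM without and 184 and 186 CPM with TOXdeltaN, and Smc2 measured 170.4 and 193 CPM without and 236 and 235 CPM with TOXFL, and 182 and 185 CPM without and 238 and 235 CPM with TOXdeltaN. They rose on average by 0.40 (adjusted p = 0.0257) and 0.37 (adjusted p = 0.0257). Smc4, the partner of SMC2 in condensin, had 460.5 and 526 CPM in TOXFL-negative against 537 and 553 CPM in TOXFL-positive cells, and 465 and 506 against 491 and 548 CPM in the TOXdeltaN groups, an average log2 difference of 0.12 (adjusted p = 0.344).

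The most abundant genes of all 56, Top2a and Mki67, had some of the smallest differences. Top2a (ENSMUSG00000020914.17, GRCm38 chromosome 11, 98992943 to 99024189, minus strand), the topoisomerase that untangles sister chromatids, was at 733 and 811 CPM in TOXFL-negative and 804 and 784 CPM in TOXdeltaN-negative libraries, against 959 and 907 CPM in TOXFL-positive and 973 and 765 CPM in TOXdeltaN-positive libraries. Its average log2 difference was 0.20 (SE 0.0818, adjusted p = 0.192). Mki67 (ENSMUSG00000031004.8, GRCm38 chromosome 7, 135689784 to 135716361, minus strand), which coats mitotic chromosomes and encodes the proliferation marker Ki-67, was at 499.5 and 533 CPM in TOXFL-negative and 500.1 and 486 CPM in TOXdeltaN-negative libraries, against 547 and 495 CPM in TOXFL-positive and 589 and 473 CPM in TOXdeltaN-positive libraries. Its average log2 difference was 0.06 (SE 0.0801, adjusted p = 0.703), its libraries were interleaved, and neither gene was called in the blocked fit.

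With TOXFL alone, the question was which of these genes differed between TOXFL-positive and TOXFL-negative cells. The genes had a median log2 difference of 0.46, or 37.2% higher, with 55 of 56 estimates above 0, while the median of all tested genes was -0.0030. In 54 of 56 genes both TOXFL-positive libraries were above both TOXFL-negative libraries, which held for 24.9% of all tested genes, and in 0 were both below (25.5%). The edgeR test without the block called 0 of 56 (0.015% of all tested genes were called higher and 0.03% lower), with a lowest adjusted p of 0.0896, for Bub1. At an unadjusted p under 0.05, 50 of the 56 were higher and 0 lower, against 6.26% and 7.17% of all tested genes. DESeq2 called 33 higher (1.03% of all tested genes), and the blocked fit called 32 of 56 higher and 0 lower, against 1.51% of all tested genes called higher and 1.97% called lower. In the blocked fit these were 8 of 9 entry kinases and cyclins, 7 of 14 spindle factors, 5 of 8 kinetochore genes, 2 of 4 checkpoint genes, 3 of 5 genes of the APC/C and sister separation, 4 of 4 passenger genes, 1 of 6 cytokinesis genes and 2 of 6 chromosome structure genes. Cdk1 rose by a log2 of 0.57 (blocked adjusted p = 0.00927), Aurka by 0.61, Ube2c by 0.60 and Bub1 by 0.56. The blocked calls did not hold when any 1 of the 4 TOXFL libraries was left out, and changed in number without any TOXdeltaN library. With 1 library left out, the median log2 difference of the 56 genes ranged from 0.34 to 0.56 in the blocked fit.

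With TOXdeltaN the differences ran the same way. The median log2 difference was 0.31, or 23.6% higher, all 56 estimates were above 0, and the median of all tested genes was 0.0054. In 42 of 56 genes both TOXdeltaN-positive libraries were above both TOXdeltaN-negative libraries, which held for 21.1% of all tested genes, and in 0 were both below (20.8%). The edgeR test without the block called 0 of 56 (0.0075% of all tested genes were called higher and 0.0225% lower). At an unadjusted p under 0.05, 37 of the 56 were higher and 0 lower, against 6.05% and 6.19% of all tested genes, and DESeq2 called 11 higher (0.42%). The blocked fit called 15 higher and 0 lower, against 0.773% of all tested genes called higher and 0.878% called lower. The 15 were Cdk1, Ccna2, Pbk, Aurka, Cenpa, Ndc80, Nuf2, Spc24, Spc25, Mad2l1, Cdc20, Ube2c, Birc5, Cdca8 and Ncapg, and all 15 were also called with TOXFL in that fit. Cdk1 rose by a log2 of 0.61 (blocked adjusted p = 0.0122), Ube2c by 0.61 and Birc5 by 0.52. Among the 5 kinetochore genes in this set are all 4 subunits of the NDC80 complex, and 0 of 6 cytokinesis genes were called. The blocked calls did not hold when either TOXdeltaN-negative library was left out, and changed in number without any other library. With 1 library left out, the median log2 difference of the 56 genes ranged from 0.21 to 0.46 in the blocked fit.

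Set side by side, the TOXFL and TOXdeltaN differences of the 56 genes correlated with a Pearson's r of 0.63 and a Spearman's rho of 0.54. This is a description across genes of 1 pathway measured in the same libraries. The TOXFL estimate was the larger in 46 of 56 genes. The test of the difference between the constructs' effects called 0 of 56 genes (0% of all tested genes), in the blocked fit also 0, and by DESeq2 0. Bub1 alone had an unadjusted p under 0.05 (difference in log2 0.35, SE 0.134, unadjusted p = 0.0281, adjusted p = 1.00). Kif11 (0.38, SE 0.192) and Espl1 (0.33, SE 0.272) had estimates of that size, and both were low in TOXdeltaN-positive replicate 2. At the other end, Cenpe had a TOXFL estimate of 0.24 and a TOXdeltaN estimate of 0.38 (difference -0.14, SE 0.148). Standard errors of the difference ran from 0.127 to 0.286, so a difference between the constructs of the size of most estimates was not detectable with 2 libraries per group. Without TOXdeltaN-positive replicate 1 the blocked fit called 10 of the 56 genes as larger with TOXFL, against 2.62% of all genes tested.

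**Figure D3:**
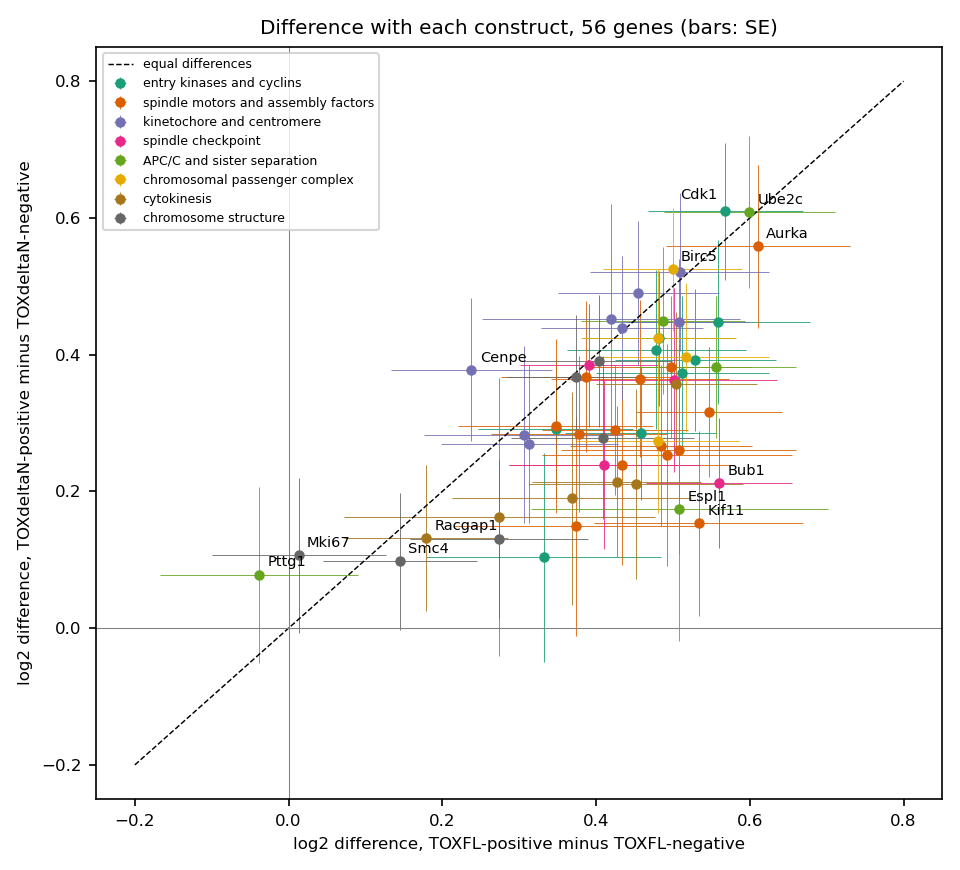
Log2 difference between GFP-positive and GFP-negative libraries with TOXFL (x axis) and with TOXdeltaN (y axis) for the 56 genes, coloured by role, with bars of 1 SE from the edgeR fit. The dashed line marks equal differences. Cdk1, Ube2c and Aurka lie at the top right near the line, Kif11, Espl1 and Bub1 lie below it, and Mki67 and Pttg1 lie near 0 on both axes.

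Compared directly, TOXFL-positive and TOXdeltaN-positive cells gave a median log2 difference (TOXFL minus TOXdeltaN) of 0.05, with 0 of 56 genes called (0% of all tested genes), also 0 in the blocked fit and 0 at an unadjusted p under 0.05. Both TOXFL-positive libraries were above both TOXdeltaN-positive libraries in 4 genes (15.9% of all tested genes) and below them in 6 (16.1%). Without TOXdeltaN-positive replicate 1, 4 of the 56 genes were called higher with TOXFL (17 in the blocked fit), against 3.67% of all genes then tested (8.46% in the blocked fit). TOXFL-negative and TOXdeltaN-negative cells had a median log2 difference of -0.06, with 0 of 56 called (0% of all tested genes) and only Bub1 at an unadjusted p under 0.05 (log2 -0.22, adjusted p = 1). Both TOXFL-negative libraries were below both TOXdeltaN-negative libraries in 8 genes (16.6% of all tested genes) and above them in 0 (16.8%). Bub1 was in both sets, lowest in the TOXFL-negative and highest in the TOXFL-positive libraries.

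Per kilobase of annotated exon, the levels of the 56 genes ranged from 5.99 CPM per kb for Anln, the ring protein anillin, and 6.00 for Cdc25c to 163 for Ccnb2 and 166 for Cdc20. Smc4 (98.1 CPM per kb), Plk1 (97.6), Top2a (93.4) and Ccna2 (92.6) followed, while Mki67, second by CPM, stood at 51.2. Within the NDC80 complex the levels per kb were 32.8 for Spc24, 25.7 for Spc25, 16.98 for Nuf2 and 15.6 for Ndc80. The passenger complex genes lay at 77.4 for Birc5, 73.1 for Aurkb, 65.7 for Incenp and 37.5 for Cdca8. These lengths are of all annotated exons joined, so a gene with long rarely used exons appears lower.

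Replicates did not move alike. In the TOXFL-negative libraries replicate 2 was above replicate 1 for 56 of 56 genes, with a median log2 CPM difference of 0.21. In the TOXdeltaN-positive libraries replicate 2 was above replicate 1 for 16 of 56, with a median of -0.12. The largest falls there were of Anln (-0.72), Espl1 (-0.71), Kif4 (-0.54) and Ckap2l (-0.50), and the largest gains were of Pttg1 (0.31) and Cenpa (0.30). Longer genes were lower in TOXdeltaN-positive replicate 2, with a Spearman's rho between exon length and the replicate difference of -0.32 over the 56 genes and -0.46 over the 8862 genes above 8 CPM. In the TOXFL-positive libraries rho was -0.28 over the 56 genes and 0.00 over the 8862. The differences between GFP-positive and GFP-negative cells also went with length, being smaller for longer genes. The Spearman correlation with exon length was -0.45 with TOXFL, -0.35 with TOXdeltaN and -0.47 on average over the 56 genes, and -0.30, -0.45 and -0.42 over the 8862. These are descriptions across genes of the same libraries, and the part of length in the differences between groups was not tested beyond the correction that follows.

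**Figure D4:**
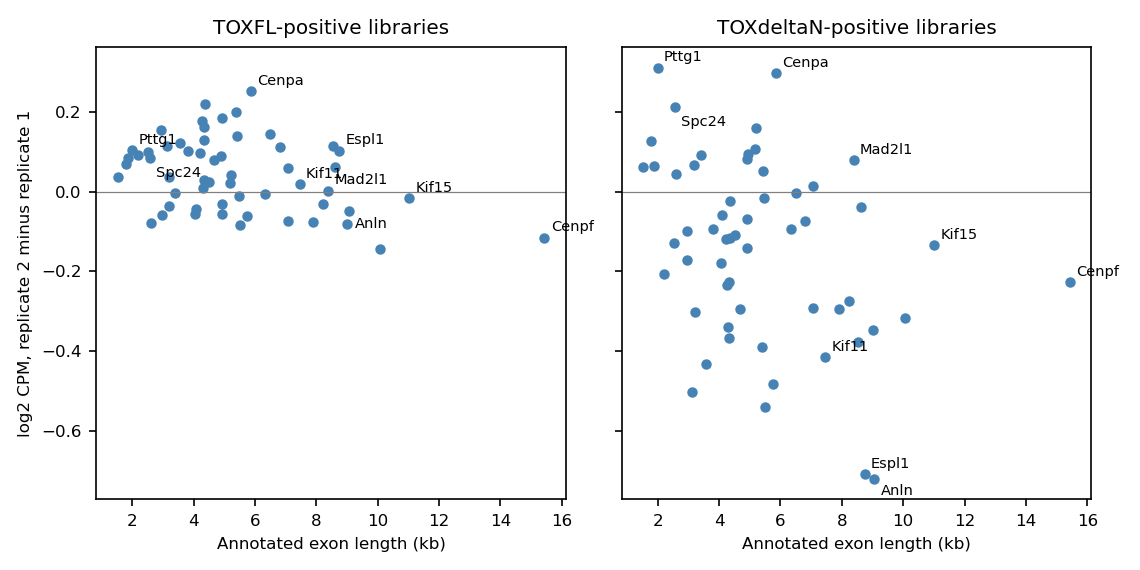
Log2 CPM of replicate 2 minus replicate 1 (y axis) against annotated exon length in kilobases (x axis) for the 56 genes, in TOXFL-positive (left) and TOXdeltaN-positive (right) libraries. Points are genes. On the left they stay within 0.3 of 0, and on the right Anln and Espl1 fall to -0.72 and -0.71.

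The 28 shorter genes (1531 to 4903 bases of exon) had median log2 differences of 0.49 with TOXFL and 0.34 with TOXdeltaN, and the 28 longer genes (4919 to 15433 bases) had 0.40 and 0.29. On average 18 of the shorter and 11 of the longer genes were called. The same split was not made for all tested genes, and the average difference fell with length over the 8862 genes too. When a smooth trend of each library with length was removed, 36 of the 56 genes were called higher on average, against 1.7% of all tested genes. Plk1 was lost, and Tpx2, Kif11, Cenpe, Cenpf, Knl1, Ttk, Kif23 and Top2a were added, some of them chosen for naming after their values were seen. Within replicate numbers, the median log2 difference of GFP-positive over GFP-negative libraries was 0.57 and 0.40 (replicates 1 and 2) for the shorter genes with TOXFL, 0.49 and 0.31 for the longer, 0.45 and 0.26 for the shorter with TOXdeltaN, and 0.40 and 0.19 for the longer.

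Other genes of the same pathways were read from the same fit, by lists that do not include the 56. In that fit 1.34% of all tested genes were called higher on average and 1.08% lower. Of 34 other kinetochore and centromere genes, 15 were called higher on average and 0 lower, with a median log2 difference of 0.38. Among them were Oip5 (log2 0.61), which helps load the centromeric histone, Ska3 (0.52), a subunit of the SKA complex that couples kinetochores to microtubules, and the centromere proteins Cenpm (0.49) and Cenph (0.51). Of 30 other spindle and centrosome genes, 5 were called higher, namely Psrc1 (0.95), Haus5 (0.40), Tubg1 (0.39), Tacc3 (0.38) and Haus4 (0.34), with a median of 0.26. Psrc1, a spindle microtubule protein, measured 16.3 and 19.7 CPM without and 32.1 and 44.2 CPM with TOXFL, and 17.4 and 22.3 CPM without and 28.98 and 40.7 CPM with TOXdeltaN. Of 20 other mitotic entry regulators, 3 were called higher, namely Mybl2 (0.48), which encodes the B-MYB activator, Cks1b (0.43) and Gmnn (0.42), with a median of 0.22. Of 24 DNA replication genes, 5 were called higher (Tyms, Rrm2, Fen1, Gins3 and Lig1, at 0.30 to 0.44), with a median of 0.27.

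The remaining lists had smaller medians and 1 gene called higher in each, against 1.34% of all tested genes. Of 17 APC/C subunits and regulators, 1 was called higher, Fbxo5 (log2 0.45), which encodes the APC/C inhibitor EMI1. The median of this list was 0.13, with 16 of 17 estimates above 0. Of 14 cohesin and other condensin genes, 1 was called higher, Cdca5 (0.45), which encodes sororin, with a median of 0.03. Of 13 other cytokinesis genes, 1 was called higher, Shcbp1 (0.45), with a median of 0.09. In none of these 7 lists was a gene called lower on average without the block (1.08% of all tested genes). In the blocked fit of the TOXFL comparison, Kifc1 (log2 -0.69), a minus-end kinesin, and Nipbl (-0.48), the cohesin loader, were called lower. They were 1 of 30 other spindle and centrosome genes and 1 of 14 cohesin and other condensin genes, against 1.97% of all tested genes. On average, Nipbl (-0.32, adjusted p = 0.0153) and Myh9 (-0.38, 0.0336), a non-muscle myosin of the contractile ring, were called lower in the blocked fit. They were 1 of 14 cohesin and other condensin genes and 1 of 13 other cytokinesis genes, against 6.69% of all tested genes. Myh9 was at 621 CPM in TOXdeltaN-positive replicate 2 against 811 to 1182 CPM in the other libraries.

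**Figure D5:**
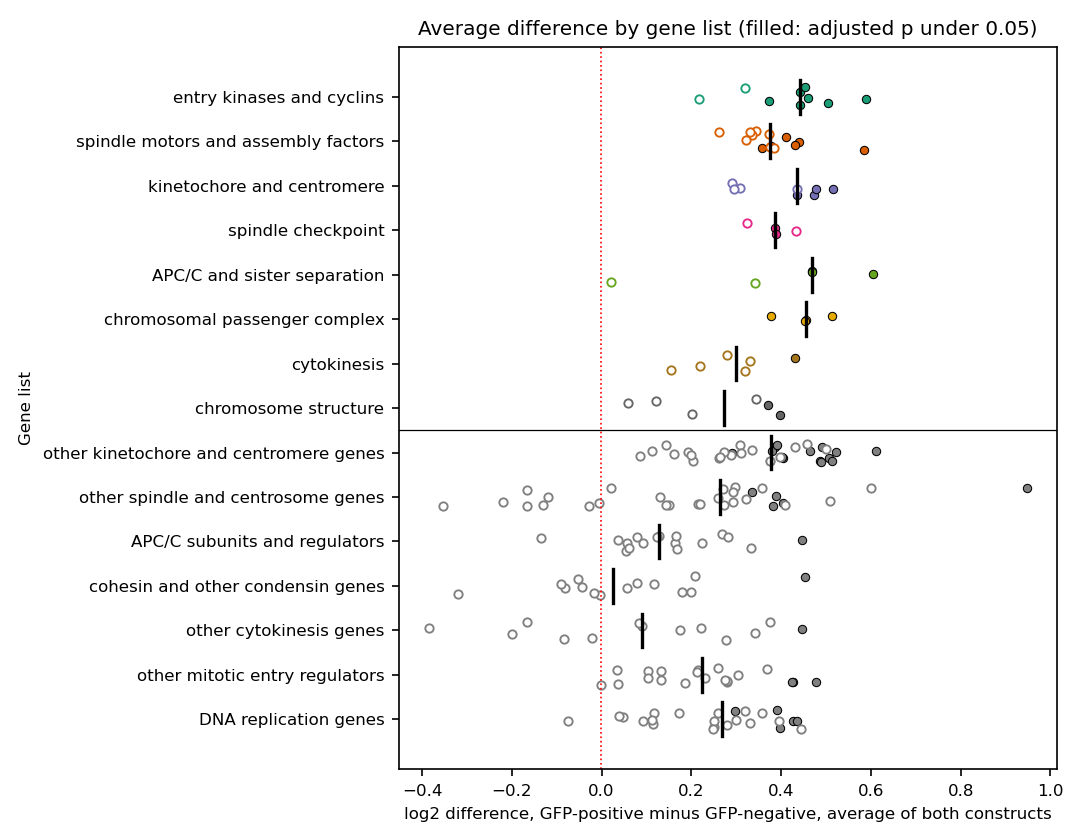
Average of the TOXFL and TOXdeltaN log2 differences (x axis) for the 8 roles of the 56 genes (coloured, above the line) and the 7 other lists (grey, below it). Each point is a gene, filled where its adjusted p was under 0.05, black bars are list medians, and the dotted line is the median of all tested genes. Passenger complex genes are all filled. APC/C subunits and regulators have a median of 0.13, with 16 of 17 above 0, and cohesin and condensin genes a median of 0.03, from -0.32 to 0.45.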

How the data were processed

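The 8 RNA-seq libraries were assigned to groups from the vector and GFP labels. They were built from 8 ng of RNA each by SMART-Seq and Nextera, per the labels' protocols, and this chemistry does not mark strand. The authors' tools, per the submitters' processing notes, were bcl2fastq 2.20, cutadapt, STAR 2.6.1 and RSEM 1.2.28 on GRCm38. The values that the authors deposited are estimated counts per gene in whole numbers, without normalisation, and the annotation release is not given in the sources used here. Of the rows, 92 were spike-in sequences with 0 counts and were left out.

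The analysis used edgeR 4.0.16 in R 4.3.3. The function filterByExpr by group left 13329 genes, TMM factors were 0.989 to 1.02, and the quasi-likelihood F-test was fitted to all 4 groups, which share 1 estimate of the spread. P-values were adjusted by Benjamini-Hochberg over all tested genes, with a threshold of 0.05. CPM values use the TMM factors, and log2 differences are edgeR's. Gene locations and exon lengths are from GENCODE M21 (GRCm38), where all 56 identifiers matched with their version. The code was also run on simulated counts, drawn without a replicate or length effect and with a smaller spread than these libraries have. That run does not show how the fits behave where such effects are present.

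The genes, roles, other lists, motifs, naming rule and the average over both constructs were chosen with earlier results of these data known. The rule gave values in every library to the 3 most abundant genes of each role (2 in roles of 4), to each gene called without the block and to the 3 lowest p-values of each construct comparison in the blocked fit, 41 genes in all. The labels do not say what the replicate number marks. Libraries with the same number deviated together from their groups, with correlations of 0.25 to 0.49 over the 6 pairs of groups (8862 genes above 8 CPM). Blocked counts of called genes are therefore given, with blocked values for some of the genes whose call changed. Alternatives were the replicate block, DESeq2 1.42.0, its size factors in edgeR, no filter, a length correction (a lowess trend of each library with exon length), each comparison's groups alone, a narrower promoter window and leaving out each library.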

Additional observations from a re-analysis of the deposited data

How the results depend on the processing

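All 29 genes called on average kept positive estimates under every alternative run. They were picked by their calls in these same libraries, so their signs in the alternative fits are no separate support. All 29 were also called in the blocked fit, by DESeq2, with DESeq2's size factors in edgeR and without the filter. With the length correction 28 of the 29 were called, and the calls did not hold in several fits with 1 library left out. Of the 56 genes, the replicate block called 43 on average, 32 with TOXFL and 15 with TOXdeltaN, DESeq2 called 46, 33 and 11, and the fit without a filter 49, 41 and 16. The length correction moved the median difference between the constructs' effects from 0.10 to 0.088 (0.089 with the replicate block). Over all tested genes the calls were 323 on average (1697 blocked, 1064 by DESeq2, 1665 unfiltered), 6 with TOXFL (464, 318, 678, and 2 in the groups alone), 4 with TOXdeltaN (220, 120, 516, and 0 in the groups alone), 0 between constructs (0, 7, 45), 0 between the GFP-positive groups (1, 15, 116, and 1 in the groups alone) and 0 between the GFP-negative groups (0, 8, 37). The narrower promoter window, from 100 bases before the start, moved the genes with the CHR variant from 4 to 2. The cause of these shifts was not tested.

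Leaving out 1 library moved the number of the 56 genes called higher over 0 to 41 on average (20 to 53 blocked), 0 to 20 with TOXFL (0 to 52 blocked), 0 to 15 with TOXdeltaN (0 to 41 blocked, with 0 to 1 lower), 0 to 10 between constructs (blocked) and 0 to 4 between GFP-positive groups (0 to 17 blocked). Over all tested genes the ranges were 5 to 2504 on average (312 to 3681 blocked), 0 to 122 with TOXFL (30 to 1772), 0 to 1571 with TOXdeltaN (0 to 2650), 0 to 1 between constructs (0 to 449), 0 to 704 between GFP-positive groups (0 to 1934) and 0 to 1 between GFP-negative groups (0 to 8). Medians of the 56 genes ranged from 0.00087 to 0.21 for the difference between constructs (-0.014 to 0.24 blocked), from -0.17 to 0.047 for the GFP-negative groups (-0.17 to 0.041 blocked) and from 0.21 to 0.46 for TOXdeltaN in the blocked fit. Estimates of named genes that changed sign in some of these fits ranged, for Mki67, from -0.12 to 0.14 with TOXFL, from -0.064 to 0.26 with TOXdeltaN (-0.049 in the blocked fit without TOXdeltaN-positive replicate 1) and from -0.025 to 0.13 on average. With TOXdeltaN they ranged from -0.13 to 0.40 for Kif11, -0.30 to 0.56 for Espl1, -0.076 to 0.47 for Kif20a, -0.025 to 0.27 for Racgap1 and -0.062 to 0.30 for Top2a. With 2 libraries per group, a group left with 1 library is assumed to vary like the others, and depth does not limit genes at these counts as the replicate spread does.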
